A study of Mus musculus with 12 samples.

Results

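The left ventricle (LV) of mice carrying human R14del-PLN was compared with the LV of mice carrying human WT-PLN by sequencing of polyA RNA. The 6 LV samples were taken by their titles from 12 heart samples, of which the other 6 came from the right ventricle (RV), and each ventricle and genotype had 3 samples. Both lines are knock-ins in which a human phospholamban coding sequence was placed at the start codon of mouse Pln, and its upstream cassette was removed by a Sox2-driven Cre. WT-PLN mice carried the intact human sequence, while R14del-PLN mice were heterozygous for an allele that lacks arginine 14. All groups were untreated and aged 12 to 14 weeks. Males are stated, but WT-PLN replicate 1 was near 0 for Y-linked genes. Their strain label is C57BL/6J, and the methods describe a hybrid line raised from chimeras with 129/Sv. The genotype is the only labelled difference between the groups, and the labels do not say whether the numbered samples are separate mice, so a p-value here measures the spread between these samples only.

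Phospholamban is a small membrane protein of the sarcoplasmic reticulum (SR) that holds back the calcium pump SERCA2a, and phosphorylation after adrenergic stimulation releases this brake. Loss of arginine 14 is an inherited change found in carriers with arrhythmia and heart failure. The working ventricle is dominated by cardiomyocyte RNA, but endothelial cells, fibroblasts, mural cells and macrophages also contribute, and in whole tissue fewer cells of a type cannot be told apart from less RNA per cell.

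Levels are in TPM, a unit that gives each gene's share of all transcripts after correction for gene length. Fold changes are R14del-PLN against WT-PLN on the log2(TPM + 1) scale, which understates the change of weakly expressed genes. A gene is named as called where the adjusted p from limma (Benjamini-Hochberg) did not exceed 0.05 and levels differed by 1.5-fold or more, in a fit of the 12526 genes whose mean reached 0.5 TPM. TPM values keep no record of the reads behind them, so depth and counting error are unknown, and genes with the value 0 are written as listed at 0. Between 17989 and 18879 genes were above 0 in each LV sample.

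A few facts of the libraries touch every result. WT-PLN replicate 1 was at 0.284 TPM for the sum of 4 Y-linked genes, against 43.5 to 62.3 TPM in the other 5 LV samples. It was also the lowest of the 3 WT-PLN samples for 44 of the 53 genes called lower. R14del-PLN replicate 3 had the lowest mitochondrially encoded share, 37.3% of all TPM against 44.0% to 51.2% in the other LV samples, and was the highest R14del-PLN sample for 43 of those 53 genes. Cardiomyocyte markers were high in every LV sample, with summed levels from 46298 to 64459 TPM for 10 genes.

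In the LV, 65 of 12526 genes were called, 0.519% of those tested. Of these, 12 were higher (0.0958%) and 53 lower (0.423%) in R14del-PLN hearts. All 65 had groups that did not overlap, as did 1372 of the tested genes (11.0%). At an unadjusted p under 0.05, 220 genes were higher and 983 lower. The balance of directions changed with the scaling. In the values as deposited, the median log2 fold change over all tested genes was -0.09. After quantile normalization this median was 0.01, and 36 genes were called higher and 65 lower. Higher genes were thus 35.6% of the calls in place of 18.5%. Without WT-PLN replicate 1, 8 genes were called higher and 145 lower. The number of calls fell to 20 without WT-PLN replicate 2 or 3, to 19 without R14del-PLN replicate 1 and to 27 without R14del-PLN replicate 2, while the sign of all 65 genes stayed the same in every alternative tried. Calls held in every alternative that tested the gene for 18 of the 65, among them Amd2, Bcl2l1, Fam107a, Gm10288, Klf15, Per1, Rgcc, Rpl34, Rpl34-ps1, Tma7-ps, Tsc22d3, Ube2d3, Zbtb16, Gbp2b, Gm5900, Gm9855 and Map3k6.

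The higher genes included the apelin receptor Aplnr, the peptidase gene Enpep and the guanylate-binding protein gene Gbp2b, together with several pseudogenes. Near-identical copies, meaning transcripts with at least 95% identity over at least 80% of the shorter one, existed for 13 of the 65 genes. The other 52 genes, 7 higher and 45 lower, are described below by function, and the level of 51 of them in each sample is shown in the heat map.

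**Figure D1:**
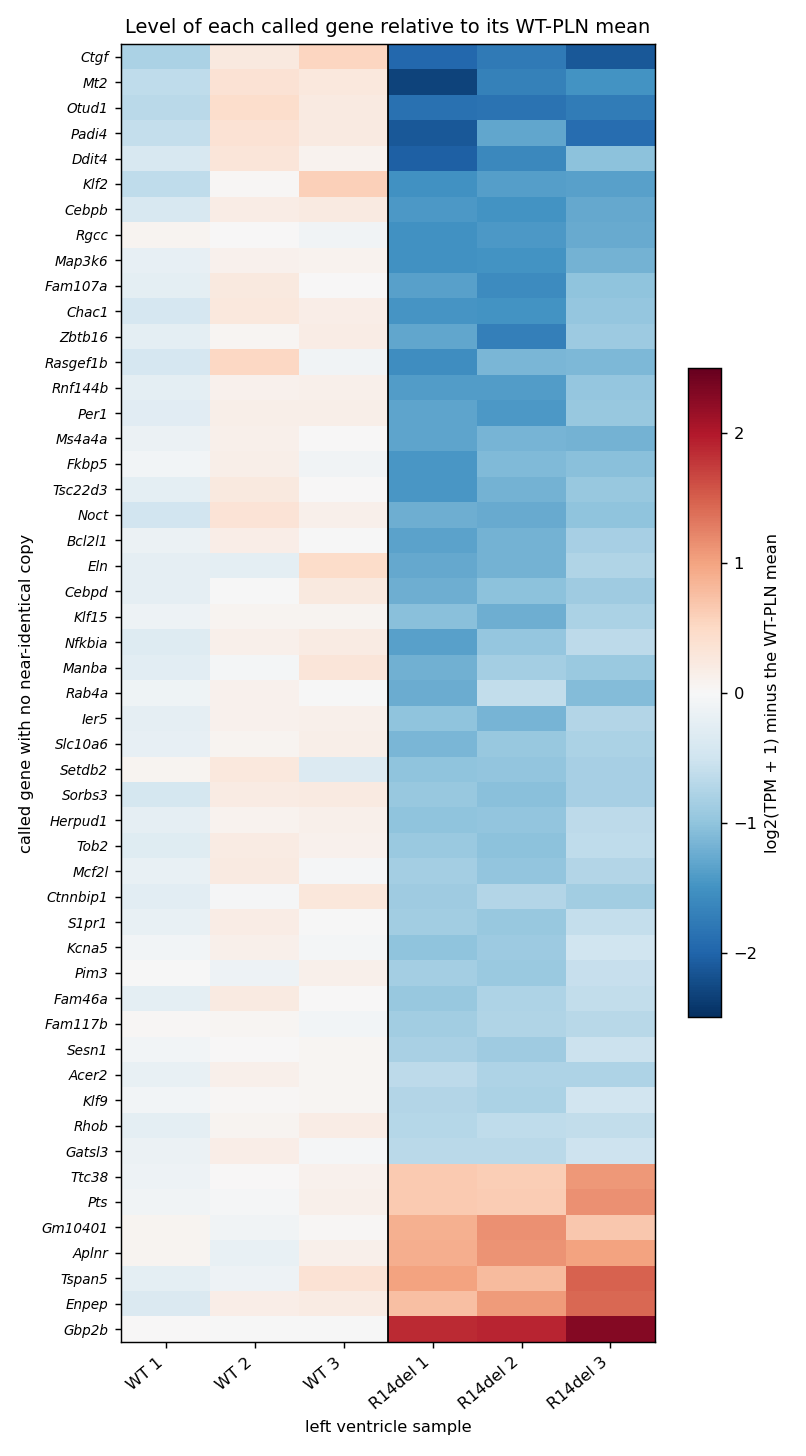
Heat map of 51 called genes with no near-identical copy (rows) in the 6 LV samples (columns). Colour gives log2(TPM + 1) minus the mean of the 3 WT-PLN samples, and the 44 lower genes are blue and the 7 higher genes red in all 3 R14del-PLN samples, with WT 1 the bluest WT sample for most lower genes.

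Genes that glucocorticoids induce formed the largest group. The glucocorticoid receptor is a nuclear hormone receptor that, once bound by corticosterone in the mouse, switches on feedback, anti-inflammatory and metabolic genes in many tissues, heart included. Of 25 tested genes of this list, 13 were called lower (52%, against 0.423% of all tested genes) and 0 higher. The median log2 fold change was -1.02 against -0.09 over all tested genes. The list was drawn up with earlier results of these data known, so its count is a description. Without WT-PLN replicate 1, 14 were called, and without WT-PLN replicate 2 or 3 or R14del-PLN replicate 1 or 2, 5 were called. The receptor gene itself, Nr3c1, was at 13.1 ± 1.31 TPM in WT-PLN and 15.1 ± 3.16 TPM in R14del-PLN hearts (SD, n = 3 each), with overlapping ranges.

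Tsc22d3 encodes GILZ, a leucine zipper protein that carries much of the anti-inflammatory action of glucocorticoids, and lies on chromosome X from 140539528 to 140600659 (GRCm38). It was at 74.3, 105 and 89.5 TPM in WT-PLN replicates 1 to 3 and at 31.5, 38.3 and 45.4 TPM in R14del-PLN replicates 1 to 3. Every R14del-PLN sample lay below every WT-PLN sample, with a log2 change of -1.20 and a standard error of 0.15 (limma adjusted p = 0.0023). Fkbp5, on chromosome 17 from 28399094 to 28517527, encodes a co-chaperone that damps receptor activity in a feedback loop. WT-PLN levels were 19.2, 22.6 and 19.0 TPM and R14del-PLN levels 6.76, 8.81 and 9.27 TPM. The groups were separated by a wide gap, with a log2 fold change of -1.20 (limma adjusted p = 0.0191).

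Zbtb16 encodes the transcriptional repressor PLZF. It fell from 34.6, 43.0 and 47.4 TPM in WT-PLN to 16.1, 12.0 and 21.6 TPM in R14del-PLN samples, a log2 fold change of -1.30 (limma adjusted p = 0.00553). Klf15, a cardiac Krüppel-like factor that follows the daily corticosteroid rhythm and controls lipid and amino acid use, was at 27.6, 31.8 and 31.7 TPM against 14.2, 12.5 and 17.0 TPM. WT-PLN samples of Klf15 were close together, and its log2 fold change of -1.02 (limma adjusted p = 0.00553) was called in all 18 alternatives tried. Its relative Klf9 had means of 37.7 ± 1.67 and 23.5 ± 2.83 TPM (SD, n = 3 each) and a log2 fold change of -0.67.

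Per1, a core repressor of the circadian clock that glucocorticoids also induce directly, was at 16.5, 22.5 and 22.7 TPM in WT-PLN and 7.55, 6.92 and 10.1 TPM in R14del-PLN samples. This was a log2 change of -1.23 with a standard error of 0.17 (limma adjusted p = 0.0044). Map3k6, a stress-activated kinase gene, fell from 5.29, 6.75 and 6.70 TPM to 1.52, 1.57 and 2.16 TPM, or -1.40 on the log2 scale (limma adjusted p = 0.00132). For both genes the highest mutant sample, replicate 3, was still well below the lowest WT-PLN sample.

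Cebpb and Cebpd encode CCAAT enhancer-binding proteins, transcription factors of the acute phase and of differentiation. Cebpb was at 13.9, 21.3 and 21.8 TPM in WT-PLN and 6.24, 6.01 and 7.08 TPM in R14del-PLN samples, a log2 fold change of -1.40 (limma adjusted p = 0.0109). Cebpd was at 3.62, 4.37 and 5.41 TPM against 1.31, 1.67 and 1.93 TPM, a log2 fold change of -1.05 (limma adjusted p = 0.0154). The mutant samples of both genes lay in a narrow band below all WT-PLN samples. Cebpb is overlapped by Tmem189 from the other strand (mean 11.4 TPM), and no source used here says if strand entered the counting.

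Ddit4 encodes REDD1, an inhibitor of the growth kinase mTORC1 that rises with glucocorticoids, energy stress and DNA damage. It was at 31.9, 52.2 and 44.9 TPM in WT-PLN and 9.42, 13.1 and 20.3 TPM in R14del-PLN samples, with a log2 fold change of -1.56 (limma adjusted p = 0.017). The metallothionein gene Mt2, whose product binds zinc and other metals, was at 28.7, 58.1 and 54.1 TPM against 8.25, 13.2 and 15.2 TPM. WT-PLN replicate 1 was the lowest of its group for both, and Mt2 had a log2 fold change of -1.84 (limma adjusted p = 0.0236). Its neighbour Mt1 moved by -0.93 (218 ± 55.4 against 112 ± 16 TPM, SD, n = 3 each) but was not called (limma adjusted p = 0.163).

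Nfkbia encodes IκBα, which keeps NF-κB in the cytoplasm. It was at 22.3, 31.0 and 32.6 TPM in WT-PLN and 10.4, 14.0 and 17.6 TPM in R14del-PLN samples, a log2 fold change of -0.99 (limma adjusted p = 0.0293). Cdkn1a, the gene of the cell cycle inhibitor p21, had means of 13.2 ± 5.29 and 3.60 ± 0.989 TPM (SD, n = 3 each) and a log2 fold change of -1.57 (limma adjusted p = 0.0198), but with its near-identical copy added the groups overlapped. Members of the list that were not called include Glul, the glutamine synthetase gene, at -0.53 (limma adjusted p = 0.278), and Angptl4, a lipoprotein lipase inhibitor gene and the single member with a positive value, at 0.31 (limma adjusted p = 0.896). Errfi1, a feedback inhibitor of growth factor receptors, had the most negative value of the list, -2.45, but WT-PLN samples at 5.57, 24.2 and 71.3 TPM and was not called (limma adjusted p = 0.289).

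**Figure D2:**
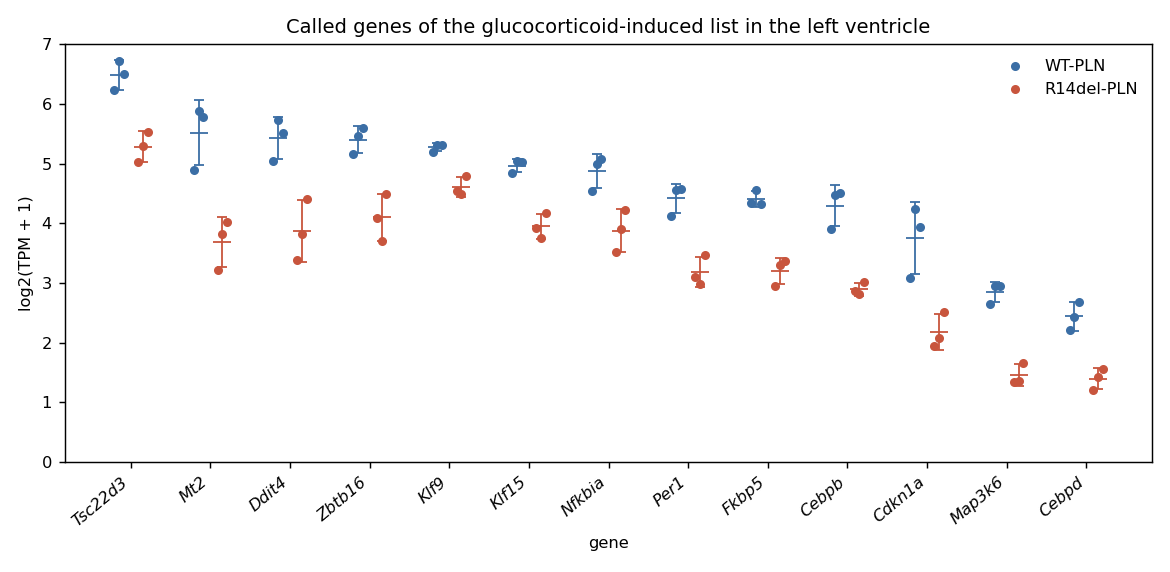
Level of the 13 called genes of the glucocorticoid-induced list in log2(TPM + 1) for each LV sample, WT-PLN in blue and R14del-PLN in red, with points for samples and horizontal marks and bars for the mean and SD (n = 3 each). No red point reaches the blue points of the same gene, with Tsc22d3 between 74.3 and 105 TPM in WT-PLN and 31.5 and 45.4 TPM in R14del-PLN hearts.

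Sequences near the start sites of the 53 lower genes were read from RefSeq (GRCm38.p6), since several of them are known to be driven through E-boxes or steroid receptor elements. Windows of 300 bases, from 250 before to 50 after each start, were found for 43 of the 53 lower genes (64 windows). The E-box CACGTG, which is its own reverse complement, was present in 8 windows (12.5%) against 9.84% of 12165 windows of all tested genes. Overlapping windows of Rpl34 held the same E-box, so these 8 windows stand for 7 genes. By gene, 7 of 43 lower genes held it, against 1119 of 9450 tested genes with a window. The receptor half-site AGAACA, searched on both strands, was in 5 windows (7.81%) against 12.5%. These 5 windows stand for 4 genes, since overlapping windows of Fam107a held the same half-sites. All tested genes with the half-site numbered 1405 of 9450. For the called genes of the glucocorticoid list alone, 15 windows of 11 genes were found. Of these, 3 (20%) held the E-box and 1 (6.67%) the half-site. The full steroid receptor palindrome (both half-sites with a spacer of 3 bases) and the cAMP response element TGACGTCA were in 0 of the 64 windows, against 0.00822% and 2.89% of all windows. Since the palindrome was in 1 of all 12165 windows, 64 windows are too few to tell whether the lower genes differ in it. All counts are of matching letters and not of tested sites. Sequence outside the windows was not searched, so elements farther from the start sites would be missed. The 3 windows of the glucocorticoid list that hold an E-box are shown, that of Klf15 with 3 matches and those of Per1 and Fkbp5 with 1 each. Another window of Per1 (chr11:69099902-69100201) held 0 matches and is not shown. Each E-box is in capitals, 5′ to 3′ on the strand of the gene.
Klf15 (chr6:90462326-90462625, plus strand): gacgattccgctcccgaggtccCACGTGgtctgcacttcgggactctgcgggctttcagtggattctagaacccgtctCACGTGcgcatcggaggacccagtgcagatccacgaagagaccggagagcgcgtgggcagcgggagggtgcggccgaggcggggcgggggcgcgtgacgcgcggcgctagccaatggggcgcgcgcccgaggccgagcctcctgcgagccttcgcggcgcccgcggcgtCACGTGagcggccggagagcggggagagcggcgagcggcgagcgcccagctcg
Per1 (chr11:69098699-69098998, plus strand): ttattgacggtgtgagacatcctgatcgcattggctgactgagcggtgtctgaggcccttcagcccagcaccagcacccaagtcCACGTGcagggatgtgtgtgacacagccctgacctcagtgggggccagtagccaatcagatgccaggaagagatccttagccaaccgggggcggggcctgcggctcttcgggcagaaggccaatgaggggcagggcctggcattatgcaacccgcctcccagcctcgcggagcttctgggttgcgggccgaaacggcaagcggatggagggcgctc
Fkbp5 (chr17:28486100-28486399, minus strand): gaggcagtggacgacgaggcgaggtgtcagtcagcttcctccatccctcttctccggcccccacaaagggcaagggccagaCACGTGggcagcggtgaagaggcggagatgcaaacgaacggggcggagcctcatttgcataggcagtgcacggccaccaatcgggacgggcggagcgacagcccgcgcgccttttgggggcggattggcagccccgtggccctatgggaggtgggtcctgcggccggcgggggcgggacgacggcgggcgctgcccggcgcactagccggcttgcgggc

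Of the 13 tested clock genes of the arm that E-boxes drive, Per1 alone was called (7.69%, against 0.519% of all tested genes). Without WT-PLN replicate 1 the count was 3. The median log2 fold change of these 13 was -0.41, and 12 had negative values. Ciart, a repressor of the clock activators, was at 11.7 ± 0.954 against 6.29 ± 1.81 TPM (SD, n = 3 each; -0.83, limma adjusted p = 0.0575). The nuclear receptor genes Nr1d1 and Nr1d2, which encode the REV-ERB repressors, had log2 values of -0.60 and -0.47 (limma adjusted p = 0.203 and 0.163). Arntl, the gene of the activator BMAL1 in the opposite phase, was at 0.373 ± 0.0276 against 0.653 ± 0.187 TPM (SD, n = 3 each; 0.26, limma adjusted p = 0.468), and 0 of the 5 tested genes of that phase were called. Noct, which encodes a rhythmic phosphatase of nicotinamide nucleotides, was called lower, from 27.9, 50.4 and 43.4 TPM to 16.3, 15.8 and 19.2 TPM (-1.16, limma adjusted p = 0.0408).

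Immediate-early and early response genes, which cells switch on within minutes of a stimulus, had 4 of 47 tested members called lower, 8.51%. Their median log2 fold change was -0.95, and 29 of the 47 had groups that did not overlap, 26 lower and 3 higher in R14del-PLN samples. Over all tested genes 0.423% were called lower and 11.0% had groups that did not overlap. The count of 4 was 16 without WT-PLN replicate 1, 1 without R14del-PLN replicate 3, and 0 with any one of the other 4 LV samples left out. Ctgf, which encodes the matricellular growth factor CCN2 and lies on chromosome 10 from 24595442 to 24598683, was at 57.7, 119 and 146 TPM in WT-PLN and 24.9, 28.5 and 22.3 TPM in R14del-PLN samples. Its WT-PLN samples were spread widely, the mutant ones were not, and the log2 change was -1.95 with a standard error of 0.39 (limma adjusted p = 0.0476). Klf2, a flow-responsive Krüppel-like factor of endothelium, was at 16, 25.9 and 38.9 TPM against 8.16, 9.11 and 9.23 TPM (-1.42, limma adjusted p = 0.0335). Ier5, a cofactor of heat shock factor, had means of 15.2 ± 2.11 and 7.33 ± 1.28 TPM (-0.97), and the small GTPase gene Rhob 63.9 ± 9.33 and 39.9 ± 1.56 TPM (-0.66, SD, n = 3 each).

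Among members of this list picked after their values were seen, Zfp36, which encodes an mRNA decay factor, was at -1.61 (limma adjusted p = 0.0517) and Klf4 at -1.35 (limma adjusted p = 0.0698). The nuclear receptor gene Nr4a1 was at 3.92, 29.5 and 58.2 TPM in WT-PLN and 1.00, 1.39 and 2.61 TPM in R14del-PLN samples. The AP-1 gene Fos was at 1.19, 5.16 and 22.3 TPM against 0.289, 0.287 and 0.958 TPM. The groups did not overlap for either gene, but WT-PLN samples spread over a wide range, and neither was called (limma adjusted p = 0.235 and 0.332).

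Further regulators were lower. Otud1, a deubiquitinase gene, was at 9.91, 22.8 and 19.5 TPM in WT-PLN and 3.78, 3.86 and 4.21 TPM in R14del-PLN samples, a log2 fold change of -1.82 (limma adjusted p = 0.0185). Padi4, which encodes a citrullinating enzyme best known from neutrophils, was at 2.32, 5.39 and 4.86 TPM against 0.145, 1.04 and 0.326 TPM (-1.78, limma adjusted p = 0.0329). Summed over 9 neutrophil markers, levels were 0.770, 3.35 and 15.1 TPM in WT-PLN and 0.652 to 1.38 TPM in R14del-PLN samples, so Padi4 exceeded that sum in WT-PLN replicates 1 and 2, and the part of such cells in its change was not tested. Rgcc, a cell cycle regulator that responds to complement and TGF-β, was at 42.0, 40.3 and 37.2 TPM against 13.3, 14.1 and 16.1 TPM. Both groups of Rgcc were tight, and its log2 fold change of -1.40 (standard error 0.13, limma adjusted p = 0.000137) had the smallest p among lower genes with no near-identical copy.

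Fam107a, an actin-binding stress-response gene, was at 9.02, 13 and 10.9 TPM in WT-PLN and 3.62, 2.99 and 4.87 TPM in R14del-PLN samples (-1.31, limma adjusted p = 0.00185). Rasgef1b, a Ras-family exchange factor gene, was at 5.42, 11.3 and 7.06 TPM against 1.92, 2.88 and 2.94 TPM (-1.28, limma adjusted p = 0.0236). Rnf144b, a ubiquitin ligase gene, was at 11.8, 15.3 and 15.6 TPM against 4.75, 4.73 and 6.77 TPM (-1.25, limma adjusted p = 0.017). In all of these the mutant samples lay below every WT-PLN sample. Ms4a4a, a gene of the MS4A family of membrane proteins, was at 5.29, 6.68 and 6.09 TPM against 1.82, 2.13 and 2.09 TPM (-1.22, limma adjusted p = 0.012). The 12 macrophage markers summed to 109.5 to 159 TPM in WT-PLN and 108 to 142 TPM in R14del-PLN samples, ranges that overlapped, and 0 of the 10 tested were called.

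Growth and survival genes followed. Bcl2l1, which encodes the survival protein BCL-XL, was at 23.9, 29.8 and 26.3 TPM in WT-PLN and 9.87, 11.1 and 14.6 TPM in R14del-PLN samples (-1.12, limma adjusted p = 0.00402). It was the only one called of 25 tested BCL2 family, caspase and inhibitor genes (4%, against 0.519% of all tested genes). The list of insulin and FoxO signalling had 3 of 21 genes called lower (14.3%, against 0.423% of all tested genes). They were Klf15, the survival kinase gene Pim3 (35.3 ± 3.05 against 20.1 ± 2.76 TPM) and the leucine-sensing sestrin gene Sesn1 (73.7 ± 3.25 against 43.6 ± 5.76 TPM, SD, n = 3 each). Foxo3 itself was at -0.57 (limma adjusted p = 0.142). Gatsl3, listed under its older name and encoding the arginine sensor CASTOR1, fell from 2.67 ± 0.417 to 1.37 ± 0.145 TPM (SD, n = 3 each; -0.62, limma adjusted p = 0.0329). Ddit4, Sesn1 and Gatsl3 all encode restraints on mTORC1, a grouping made after their values were seen. Tob2, an antiproliferative factor gene, was at -0.86, and Ctnnbip1, an inhibitor of β-catenin, at -0.83.

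Genes of the endoplasmic reticulum and of the integrated stress response had 4% and 8% of their tested members called, against 0.519% of all tested genes. Of 25 ER chaperone and unfolded protein response genes, Herpud1, which helps to clear misfolded ER proteins, was called, at 181 ± 23.5 against 97.6 ± 14.2 TPM (SD, n = 3 each; -0.88, limma adjusted p = 0.0191). The list's median was -0.22, and Xbp1, a master regulator of this response, was at -0.63 (limma adjusted p = 0.0798). Of 25 ATF4 pathway genes, Chac1, which degrades glutathione, fell from 3.01, 5.41 and 4.98 TPM to 0.931, 0.909 and 1.75 TPM (-1.31, limma adjusted p = 0.017), and Ddit4 was the other called. Asns, the asparagine synthetase gene and a standard ATF4 target, had the opposite sign, from 0.916 ± 0.141 to 1.83 ± 0.248 TPM (SD, n = 3 each; 0.56, limma adjusted p = 0.175). Of 29 heat shock genes, 0 were called by limma, and at an unadjusted p under 0.05 there were 7 lower, among them Hspa8 at -0.50, and 1 higher, Hspb3 at 0.41. The list's median was -0.21, with 26 negative values, and without WT-PLN replicate 1 there were 2 called lower.

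The list of collagens and matrix-modifying enzymes had 1 call. It does not hold the matricellular gene Ctgf, whose call is given above. Eln, the elastin gene, on chromosome 5 from 134702593 to 134747323, was at 5.44, 5.32 and 9.34 TPM against 2.10, 2.29 and 3.43 TPM (-1.07, limma adjusted p = 0.0315). It was the only one of the 37 tested genes of this list called (2.7%, against 0.519% of all tested genes). The list's median was -0.29, with 36 negative values. Without WT-PLN replicate 1, 4 were called lower and the median was -0.42. Fibroblast markers had a median of -0.37, with 0 of 11 called and summed levels of 760.5 to 1265 TPM in WT-PLN and 589 to 932 TPM in R14del-PLN samples, and their part in the matrix values was not tested. S1pr1, the sphingosine 1-phosphate receptor gene of endothelium, was lower (19.9 ± 2.82 against 11.0 ± 1.53 TPM, -0.81), as was Acer2, whose ceramidase makes the precursor of that ligand (11.4 ± 1.37 against 6.46 ± 0.365 TPM, SD, n = 3 each; -0.73).

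The apelin receptor gene Aplnr, on chromosome 2 from 85136225 to 85139923, moved the other way. The receptor is found on endothelium and cardiomyocytes and acts on vessel growth, vascular tone and contractility. WT-PLN levels were 2.68, 2.08 and 2.84 TPM and R14del-PLN levels 5.56, 6.68 and 6.11 TPM, so that the lowest mutant sample was well above the highest WT-PLN sample (1.01, standard error 0.17, limma adjusted p = 0.017). Enpep encodes aminopeptidase A, which trims angiotensin II, and lies on chromosome 3 from 129269175 to 129332720. It was at 1.32, 2.33 and 2.42 TPM against 4.0, 5.25 and 7.10 TPM (1.09, standard error 0.22, limma adjusted p = 0.0464). Among the 31 tested genes of adrenergic, apelin and adrenomedullin signalling, Aplnr and S1pr1 were the only ones called (6.45%, against 0.519% of all tested genes). Without WT-PLN replicate 1 there were 1 called higher and 2 lower. Ramp2, a subunit of the adrenomedullin receptor, was at 37.5 ± 5.02 against 21.5 ± 0.881 TPM (SD, n = 3 each; -0.77, limma adjusted p = 0.0747). Endothelial markers summed to 711 to 774 TPM in WT-PLN and 638 to 884 TPM in R14del-PLN samples, and 0 of the 14 were called.

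Other higher genes were few. Gbp2b, a guanylate-binding GTPase gene of the interferon response on chromosome 3 from 142594847 to 142619179, was at 0.0119 TPM in WT-PLN replicate 1, listed at 0 in the other WT-PLN samples, and at 2.66, 2.75 and 3.90 TPM in R14del-PLN samples. The groups lay far apart, with a log2 fold change of 2.02 (standard error 0.14, limma adjusted p = 4.26e-06). This stood alone among interferon-stimulated genes, of which 0 of 36 tested were called by limma, 4 had an unadjusted p under 0.05 and the median was -0.04. Tspan5, a tetraspanin gene, was at 2.21, 2.48 and 3.84 TPM against 6.58, 5.52 and 9.44 TPM (1.08, limma adjusted p = 0.0293). Pts, which encodes an enzyme of tetrahydrobiopterin synthesis, was at 12.0, 12.5 and 14.2 TPM against 20.9, 20.4 and 29.6 TPM (0.81, limma adjusted p = 0.0277). Ttc38 was at 1.58, 1.85 and 2.05 TPM against 3.43, 3.34 and 5.01 TPM (0.79). Gm10401, whose values stayed at or under 1.34 TPM, overlaps Sppl3 on the opposite strand.

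Other lower genes with no copy had varied roles. Manba, a lysosomal mannosidase gene, was at 5.75, 6.82 and 9.05 TPM in WT-PLN and 2.51, 3.51 and 3.28 TPM in R14del-PLN samples (-0.99). Rab4a, a GTPase gene of endosome recycling, was at 7.99, 9.47 and 8.59 TPM against 3.10, 5.29 and 3.53 TPM (-0.98), and it overlaps Gm20388 on the same strand. Slc10a6, a steroid sulphate transporter gene, was at 2.51 ± 0.442 against 0.803 ± 0.224 TPM (SD, n = 3 each; -0.96). Kcna5, the gene of the Kv1.5 potassium channel, was the only one called of 37 ion channel, pump and gap junction genes (2.7%, against 0.519% of all tested genes). It was at 7.81 ± 0.668 against 4.11 ± 0.996 TPM (SD, n = 3 each; -0.80, limma adjusted p = 0.0312). The adaptor gene Sorbs3 (-0.94), the exchange factor gene Mcf2l (-0.86), Fam46a (-0.78) and Fam117b (-0.77) were also called. Setdb2, a histone methyltransferase family gene, is described with the RV values.

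Several of the largest changes were in genes with near-identical processed copies, which are reverse-transcribed and reinserted messages that often differ from the parent gene at a few bases. Rpl34 on chromosome 3 encodes a protein of the large ribosomal subunit, and Rpl34-ps1 is its processed copy on chromosome 6. Over the 354 aligned bases they differ at 2, T132C and C318G, counted from the start of the aligned coding sequence, with the parent base given first. The bases around each difference are shown because within this stretch only these 2 positions tell the sequences apart. How reads were assigned to either gene is not known, and no reads were examined. The differing base is in capitals, with the position of the copy (GRCm38, plus strand).
Rpl34 at the first difference: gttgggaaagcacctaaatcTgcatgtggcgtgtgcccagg
Rpl34-ps1 (chr6:71124721-71124761): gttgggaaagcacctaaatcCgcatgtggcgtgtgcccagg
Rpl34 at the other difference: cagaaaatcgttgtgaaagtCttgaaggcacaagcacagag
Rpl34-ps1 (chr6:71124907-71124947): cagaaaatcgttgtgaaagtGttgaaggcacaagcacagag

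Rpl34 was at 247, 241 and 255 TPM in WT-PLN and 31.8, 28.7 and 32.8 TPM in R14del-PLN samples (-2.96). Rpl34-ps1 was listed at 0 in WT-PLN replicates 1 and 2, was at 0.549 TPM in replicate 3, and was at 221, 236 and 250 TPM in R14del-PLN samples (7.67). Each change was far larger than the spread between samples, but the values belong together. The sum of Rpl34 and its 5 copies was 247, 241 and 256 TPM in WT-PLN and 254, 267 and 285 TPM in R14del-PLN samples, and the groups overlapped (log2 difference 0.114). The total overlapped between genotypes, and the share listed under each of the 2 sequences did not.

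**Figure D3:**
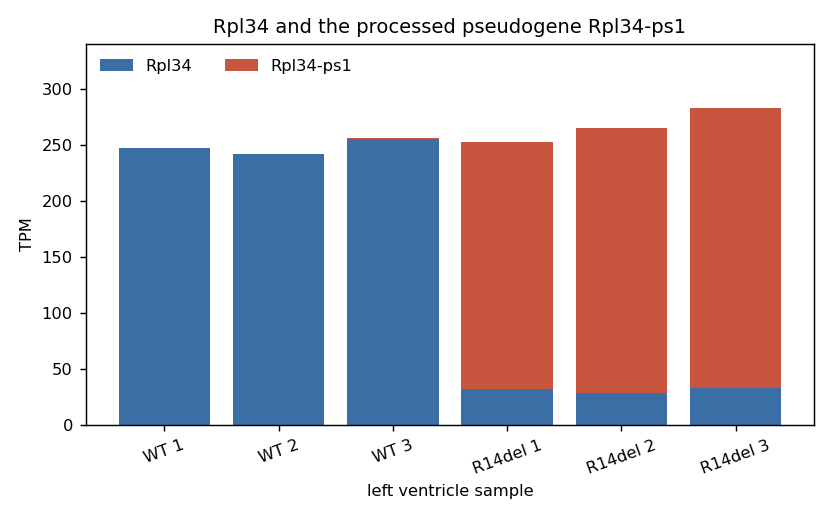
Stacked bars of Rpl34 (blue) and Rpl34-ps1 (red) in TPM for each of the 6 LV samples. Almost the whole bar is Rpl34 in WT-PLN samples, and 221 to 250 TPM of it is Rpl34-ps1 in R14del-PLN samples, while the bar heights overlap between genotypes.

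The same held for Tma7 and its copy Tma7-ps, which differ at A123G and C141T of 195 aligned bases and whose windows hold both differences. Tma7 encodes a small factor linked to translation.
Tma7 at both differences: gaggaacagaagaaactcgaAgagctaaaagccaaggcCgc
Tma7-ps (chr1:171711190-171711230): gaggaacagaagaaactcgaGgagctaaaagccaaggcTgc
Tma7-ps was at 11.9, 18.0 and 18.7 TPM in WT-PLN samples and listed at 0 in every R14del-PLN sample, while the sum over the family was 66.5 ± 1.37 against 67.3 ± 6.24 TPM (SD, n = 3 each). Gm5900, a copy of Lamtor3 (a scaffold gene of the lysosomal Ragulator complex) that differs at C111T and G336A of 375 bases, went the other way. All WT-PLN samples listed it at 0, and it was at 5.52, 8.23 and 10.6 TPM in R14del-PLN samples, with a sum that overlapped between groups (41.5 ± 4.79 against 44.5 ± 7.53 TPM, SD, n = 3 each). Gm9855, a copy of the DNA repair gene Tdg that differs at 9 of 1194 bases, was listed at 0 in WT-PLN and was at 1.98, 2.33 and 2.20 TPM in R14del-PLN samples, and Tdg with its copies overlapped as a sum.

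Sums did not overlap for every such gene. Gm10288 differs from its parent Rpl11, another large-subunit gene, at G86A alone over 537 bases.
Rpl11 at the difference: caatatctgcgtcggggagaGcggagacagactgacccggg
Gm10288 (chr3:146839242-146839282, minus strand): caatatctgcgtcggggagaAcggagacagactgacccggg
Gm10288 fell from 31.1, 37.4 and 39.5 TPM to 2.47, 0 and 0.686 TPM (-4.35), and the sum of Rpl11 and all copies was 250 ± 2.27 against 192 ± 29.2 TPM (SD, n = 3 each) and did not overlap. Ube2d3, a ubiquitin-conjugating enzyme gene on chromosome 3, was at 175, 194 and 175 TPM in WT-PLN and 102, 101 and 104 TPM in R14del-PLN samples (-0.82, limma adjusted p = 0.00207). Its copies held at most 1.32 TPM in any LV sample, so the sum moved with the gene. Amd2, a polyamine synthesis gene almost identical to Amd1, was at 23.8 ± 1.68 against 8.60 ± 0.408 TPM (-1.37), and with its copies at 92.1 ± 5.36 against 65.9 ± 9.09 TPM (SD, n = 3 each), without overlap. The ribosomal protein gene Rpl29 was at 202.4 TPM in WT-PLN replicate 1, at 26.6 and 28.6 TPM in WT-PLN replicates 2 and 3, and at 170.6 to 205.7 TPM in R14del-PLN samples. For the pseudogene Rpl17-ps5, replicates 2 and 3 of WT-PLN were at 58.6 and 54.6 TPM, while WT-PLN replicate 1 and all R14del-PLN samples were listed at 0. WT-PLN replicate 1 thus lay with the R14del-PLN samples for both genes, and neither was called (limma adjusted p = 0.485 and 0.394).

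Called genes were unevenly spread along the genome. Chromosome 3 held 9 of the 65, 1.5% of its 601 tested genes, the highest share of any chromosome. When chromosomes were divided into 145 windows of 20 Mb, a width chosen after positions were seen, the window of chromosome 3 from 120 to 140 Mb held 5 called genes among 66 tested (7.58%), and no other window held over 3. The 5 genes were Enpep and Tspan5, which were higher, and Rpl34, Ube2d3 and Manba, which were lower. In this window 15 of 66 genes (22.7%) had groups that did not overlap, against 11.0% of all tested genes, and 2 windows had higher shares, chromosome 8 from 120 to 140 Mb with 21 of 82 genes (25.6%) and 1 called, and chromosome 16 from 60 to 80 Mb with 4 of 16 (25%) and 0 called. Lamtor3, the parent of the higher copy Gm5900, lies in the same window, and Gbp2b and Gm10288 lie in the next. On chromosome 10, which carries Pln from 53337667 to 53345987, 6 of 598 genes were called (1%, against 0.519% of all tested genes). The window from 40 to 60 Mb, which holds Pln, had 3 of 67 genes called (4.48%), namely Gm9855, Sesn1 and Ddit4. Its neighbour from 20 to 40 Mb had 2 of 54 (3.7%), Ctgf and Amd2. Within 10 Mb of Pln, 1 of 78 tested genes was called, Ddit4, while Gm9855 and Sesn1 lay 11.3 and 11.4 Mb away. Strain background along these chromosomes was not tested.

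Calcium handling genes were not called. Pln was at 1708.0, 1820.9 and 1874.6 TPM in WT-PLN and 1559.1, 1615.2 and 1716.0 TPM in R14del-PLN samples (-0.14, limma adjusted p = 0.746), and the lowest WT-PLN sample lay just under the highest R14del-PLN sample. A deletion of 3 bases cannot be seen in such a value, and how reads of the human sequence were assigned is not stated, so it does not check the genotype. Atp2a2, which encodes SERCA2a, ranged from 2623.3 to 3361.3 TPM in WT-PLN and from 2385.5 to 3433.4 TPM in R14del-PLN samples, and its value of -0.09 (limma adjusted p = 0.919) was 0.04 after upper quartile scaling. Of 31 tested SR calcium genes 0 were called by limma, with 2 at an unadjusted p under 0.05 and a median of -0.09, the same as over all tested genes. These 2 were Camk2b, a calmodulin-dependent kinase gene, at 3.65 ± 0.546 against 5.64 ± 1.08 TPM (0.51, limma adjusted p = 0.29), and Fkbp1a, a ryanodine receptor partner, at -0.28 (limma adjusted p = 0.445). Kcne1, a potassium channel subunit gene, was at -1.09 (limma adjusted p = 0.0904) and Rrad, a calcium channel inhibitor gene, at 1.04 (limma adjusted p = 0.208).

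Energy and contractile genes were also without calls. This held for 37 fatty acid, 26 glycolysis, 23 citric acid cycle, 30 sarcomere, 81 nuclear respiratory chain, 20 desmosome and intercalated disc and 47 proteasome genes, with medians between -0.09 and -0.01. At an unadjusted p under 0.05, limma passed 0 of the fatty acid, citric acid cycle and respiratory chain genes, 2 of glycolysis, 1 of the sarcomere, 2 of the desmosome and 2 of the proteasome list. The desmosomal gene Pkp2 was at 57.6 ± 3.52 against 42.9 ± 6.25 TPM (SD, n = 3 each; -0.42, limma adjusted p = 0.222) and the connexin gene Gja1 at 0.49 (limma adjusted p = 0.468).

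Antigen presentation had a low median without calls. The 18 tested genes had a median of -0.38 and 17 negative values, and 9 passed an unadjusted p of 0.05. H2-Eb1, a class II gene, was at 31.8, 46.1 and 51.7 TPM in WT-PLN and 10.8, 17.2 and 27.5 TPM in R14del-PLN samples (-1.25, limma adjusted p = 0.0747), and the invariant chain gene Cd74 was at -0.90 (limma adjusted p = 0.136). Without WT-PLN replicate 1, 4 genes of the list were called lower, and the part of macrophages in these values was not tested.

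**Figure D4:**
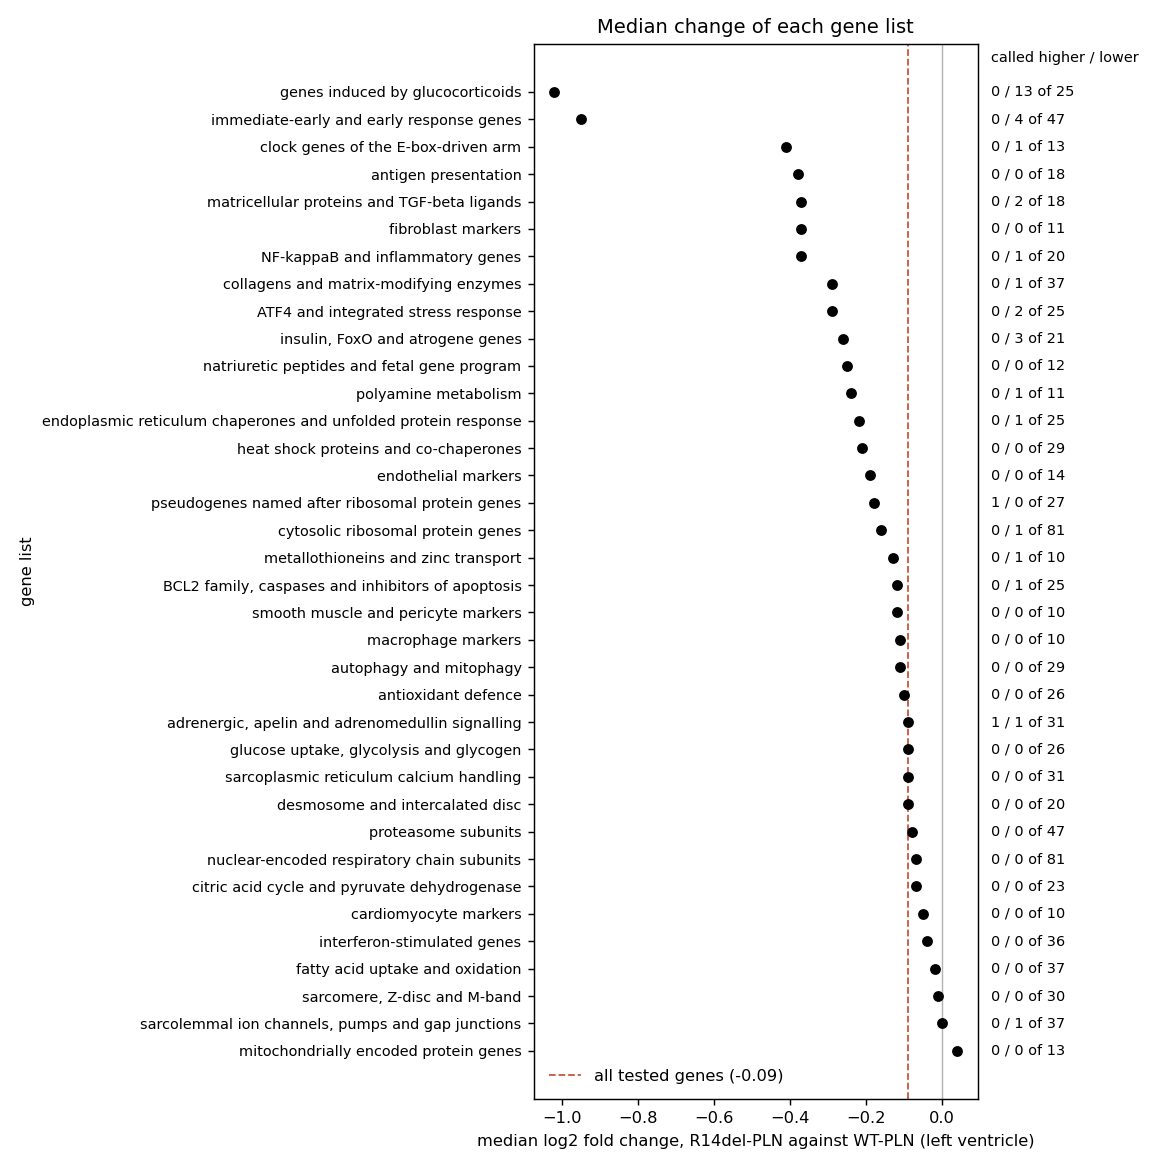
Median log2 fold change of each gene list with at least 10 tested genes (dots), with the number called higher and lower beside it and the median over all tested genes (-0.09) as a dashed line. Of the lists drawn, genes induced by glucocorticoids (-1.02) and immediate-early genes (-0.95) lie farthest from the line, and the genes named in the study's results text, with a median of -1.12, are not drawn.

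Over 14 marker lists of cell types, 0 of 79 tested genes were called by limma. Red cell markers summed to 2088 to 2316 TPM in WT-PLN and to 1093, 1392 and 2142 TPM in R14del-PLN replicates 1 to 3, with a median log2 fold change of -0.62. All 5 tested red cell genes were lower, 4 of them at an unadjusted limma p under 0.05. For 3 of the 5 the groups did not overlap, against 11.0% of all tested genes. Atrial cardiomyocyte markers had a median of -2.15 and summed to 227, 330.3 and 1339 TPM in WT-PLN and 161, 336 and 274 TPM in R14del-PLN samples, so WT-PLN replicate 3 stood apart. It was at 299 TPM for Myl7, the atrial myosin light chain gene, against 39.4 and 0.512 TPM in the other WT-PLN samples. Of 4 lung epithelial markers, 3 were listed at 0 in all LV samples. For each of the 14 marker lists the summed levels overlapped between the genotypes.

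Of the genes that the results text of the study names, 19 were tested and 5 called lower (26.3%, against 0.423% of all tested genes), among them Chac1, Bcl2l1, Pim3 and Slc10a6. Without WT-PLN replicate 1, 9 were called lower, and 14 with both WT samples numbered 1 left out. That list was chosen on these samples and is not independent evidence. Sln, the gene of the SERCA2a regulator sarcolipin and one of the atrial markers, was at 3.62, 0.0547 and 27.8 TPM in WT-PLN and 0.0237, 0.142 and 0 TPM in R14del-PLN samples, with overlapping ranges (-2.30, limma adjusted p = 0.62). Thbs1 (-2.63), Hspa1a (-1.99), Hspa1b (-2.15), Dnajb1 (-1.18), Dnaja1 (-0.73), Atf3 (-1.49), Dusp1 (-1.23) and Timp3 (-0.77) had negative values and were not called, with limma adjusted p between 0.0725 and 0.519. By sign, 17 of the 19 tested genes were lower and 2 were higher, Rrad (1.04) among the higher ones, and 0 were called higher. Mcoln2, a lysosomal cation channel gene below the mean of 0.5 TPM, was at 0.0577 ± 0.0513 against 0.264 ± 0.0257 TPM (SD, n = 3 each). In a limma fit of all genes above 0 it had an adjusted p of 0.0291 with a log2 change of 0.26, under the required fold. That change is on the log2(TPM + 1) scale, which understates differences at such low levels.

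The LV values were last set beside those of the RV. All 65 genes had the same sign in both ventricles, and 29 of them were among the 34 genes called in the RV (0.271% of those tested). The other 36 were not shown to differ, since the interaction of genotype and ventricle was called by limma for 0 of 12526 genes (0.00%), with 127 at an unadjusted p under 0.05. Of the 65, 56 had the larger change in the LV, where they were chosen. The smallest interaction p among them belonged to Setdb2, which was at 5.03, 5.96 and 3.57 TPM in WT-PLN and 1.87, 1.92 and 2.25 TPM in R14del-PLN LV samples. Its log2 fold change was -0.94 in the LV and -1.67 in the RV (unadjusted p = 0.00855 for the interaction in the limma fit across all genes). Eln had the next smallest, with -1.07 in the LV and -0.46 in the RV (unadjusted p = 0.0499 in the same fit). The limma adjusted interaction p was 0.9999 for each. LV and RV samples of the same genotype and number had deviations from their group means with correlations across genes of 0.0542 to 0.657, and the model treats them as independent.

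**Figure D5:**
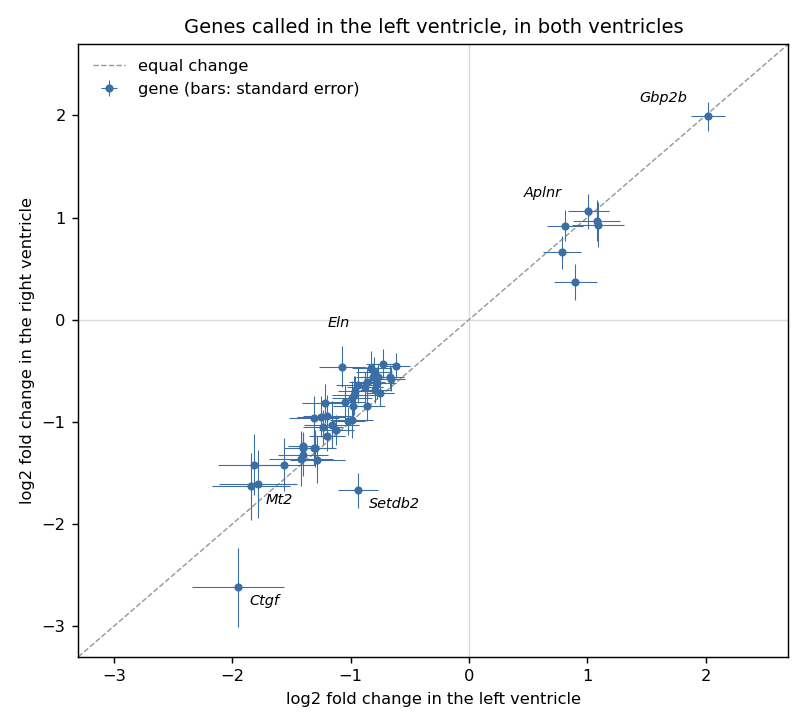
Log2 fold change in the LV (horizontal) against the RV (vertical) for 51 called genes with no near-identical copy, with bars for standard errors and a dashed line for equal change. Most lower genes lie slightly above the line, that is with the larger change in the LV, and Setdb2 (-0.94 and -1.67) lies farthest below it.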

How the data were processed

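PolyA RNA of mouse LV and RV was measured in 4 groups of 3 samples. TPM values were used as deposited by the authors, who mapped stranded reads to GRCm38 in CLC Genomics Workbench. Whether it also made the TPM values, and from which annotation, is not given in the sources used here. Of 33641 genes listed, 12526 whose mean across all 12 samples reached 0.5 TPM were tested on log2(TPM + 1) with limma 3.58.1 in R 4.3.3, with a mean-variance trend, 4 group means and Benjamini-Hochberg adjustment. On simulated data with 12526 genes this comparison found 80 of 100 genes changed by 1 and 97 of 100 changed by 2 on the log2 scale, with 4 false calls. The simulated samples were independent, while same-numbered LV and RV samples here had deviations correlated at 0.0542 to 0.657. These rates therefore need not hold for the real samples. Copies were found with BLAST 2.17.0. Other steps used Python 3.11.15. Members and lists were chosen with earlier results of these data known. Values by sample were given for called genes that the study's results text does not name and that have no copy, up to 12 higher and 24 lower by size of change. Then came up to 6 genes with a copy, 4 members of each list by p, the study's own named genes, Pln, Atp2a2 and up to 5 genes by interaction p. Nr3c1, Glul, Angptl4, Errfi1, Zfp36, Klf4, Nr4a1, Fos, Rpl11, Tma7, Lamtor3 and Tdg were chosen after their values were seen, as was the naming of any other gene. Depth is unknown. Alternatives changed the pseudocount, filter, scaling, trend, samples and replicate term. The result for 1 called gene is not reported here.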

Additional observations from a re-analysis of the deposited data

How the results depend on the processing

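The number of LV genes called, 65, became 22 with no filter on low values, 101 with quantile normalization, 99 with upper quartile scaling, 37 at a fold change of at least 2 and 231 with both WT samples numbered 1 left out, and ranged from 19 to 153 with a single LV sample left out. With the LV samples alone in the fit 50 were called, and 40 of the 65 held. The 12 higher genes became 3 at a mean of at least 5 TPM, 4 with no filter, 36 with quantile normalization, 35 with upper quartile scaling and 7 without near-identical copies, and ranged from 4 to 8 with a single LV sample left out. The 53 lower genes became 18 with no filter, 29 at a fold change of at least 2 and 214 with both WT samples numbered 1 left out, and ranged from 14 to 145. Genes induced by glucocorticoids called lower, 13, became 6 with no filter and ranged from 5 to 14. Early response genes called lower, 4, became 0 with no filter and 26 with both WT samples numbered 1 left out, and ranged from 0 to 16. Interaction calls ranged from 0 to 1, the 1 arising without LV WT replicate 2. The difference in the mitochondrially encoded share, 0.296 percentage points, was -2.01 after quantile normalization and ranged from -2.16 to 4.80. The log2 change of Atp2a2, -0.09, was 0.04 with upper quartile scaling and ranged from -0.24 to 0.03. The cause of these changes was not tested, and a filter or sample left out also changes the number of genes or samples in the fit. Depth limits could not be set from TPM.

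With the replicate number as a block (replicate block), 119 genes were called, 25 higher and 94 lower, with 10 early response genes among them, and 64 of the 65 LV calls held. Same-numbered WT-PLN and R14del-PLN samples had deviations correlated at -0.0209, 0.156 and 0.0919 across genes, and not every sample correlated best with its own number, so the numbers were not taken to pair the samples.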

Other observations

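Skeletal muscle actin Acta1, a gene of the fetal program in the adult heart, was at 128.9, 197.1 and 130.2 TPM in WT-PLN and 66.4, 50.5 and 117.9 TPM in R14del-PLN samples. The groups did not overlap, but R14del-PLN replicate 3 lay near the WT-PLN samples and the gene was not called (-1.01, limma adjusted p = 0.574). Of 12 tested natriuretic peptide and fetal program genes, 0 were called by limma, 2 had an unadjusted p under 0.05 and the median log2 fold change was -0.25. The mitochondrially encoded complex I gene mt-Nd5 was at 13146 ± 1126 TPM in WT-PLN and 16114 ± 190 TPM in R14del-PLN samples (SD, n = 3 each), a log2 change of 0.30 that was not called (limma adjusted p = 0.398). The scavenger receptor gene Cd163 of macrophages was at 6.08, 7.45 and 5.23 TPM against 2.92, 4.25 and 2.82 TPM, without overlap (-0.75, limma adjusted p = 0.145).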
